A study of Mus musculus with 24 samples.

Results

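The radiation effect on lung miRNAs at day 180 was set against the effect at day 90, to find miRNAs whose response turned over between the 2 days. The effect of a day is the log2 fold change of irradiated against control lung, and the effect difference is the effect at day 180 minus the effect at day 90. The members are the annotated mouse miRNAs listed in the count tables of both days, 1208 of the 1950 row names in the whole series. Of these, 554 (45.9%) passed a filter on low counts and were tested, and the rest did not and were not tested. A miRNA could pass the filter through the group in which it was high. The whole lungs came from C57BL/6 mice, an inbred laboratory strain, that received 15 Gy of X-rays to the thorax at an age of 6 to 8 weeks, or no radiation. Small RNA was sequenced at day 14, day 90 and day 180, with 24 libraries in all. The 4 groups used here are control day 90, irradiated day 90, control day 180 and irradiated day 180, with 4 libraries each. Whether each library is a separate animal is not stated, and the p-values here measure only how libraries spread, which may be technical.

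A miRNA is a short RNA that guides Argonaute proteins to messenger RNAs and lowers their translation or stability. Its targets are set mainly by the seed, bases 2 to 8, so miRNAs with the same seed can act on overlapping sets of messages. After thoracic irradiation the mouse lung is known to pass through an inflammatory phase, pneumonitis, and later a phase of fibrosis in which collagen is laid down. Several miRNAs serve as markers of a cell type in whole lung: miR-126 of endothelium, miR-34b/c and miR-449 of ciliated cells, miR-144 and miR-451a of red blood cells, and miR-1, miR-133 and miR-208 of striated muscle and heart.

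The mature sequences of 15 miRNAs on which the results turn are given here so that shared seeds can be seen. Each is written 5′ to 3′ from RefSeq (GRCm38.p6), with the seed in capitals. The first 9 had a higher mean in irradiated lung at day 90 and a lower mean at day 180, and the other 6 ran the opposite way.
miR-32-5p: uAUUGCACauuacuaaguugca
miR-144-3p: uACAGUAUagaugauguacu
miR-141-3p: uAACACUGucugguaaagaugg
miR-219a-5p: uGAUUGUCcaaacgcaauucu
miR-29b-3p: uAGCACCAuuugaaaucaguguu
miR-34b-3p: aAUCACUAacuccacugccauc
miR-34c-3p: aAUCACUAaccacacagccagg
miR-33-5p: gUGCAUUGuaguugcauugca
miR-208a-3p: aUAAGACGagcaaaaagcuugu
miR-196a-5p: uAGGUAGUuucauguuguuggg
miR-196b-5p: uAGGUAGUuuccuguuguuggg
miR-125a-3p: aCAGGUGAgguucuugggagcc
miR-342-5p: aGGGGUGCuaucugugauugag
miR-146b-5p: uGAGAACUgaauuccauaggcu
miR-155-5p: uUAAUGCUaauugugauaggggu
The seeds of miR-196a-5p and miR-196b-5p are identical, as are those of miR-34b-3p and miR-34c-3p. In all, 459 of the 554 tested miRNAs (82.9%) had a RefSeq sequence.

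Total counts of the 16 libraries lay between 2832205 and 3695133. The irradiated day 180 library of replicate 1 stood apart. It had the lowest total, a median Spearman correlation with the other 15 libraries of 0.908 against 0.931 to 0.962 for the rest, and 35.5% of its counts in its 10 most abundant miRNAs against 27.1% to 29.7%. The lung markers were abundant in every group: miR-126a-3p of endothelium had a group mean of 30951 to 35483 CPM (the count scaled by the TMM-adjusted library size) and miR-200c-3p of epithelium one of 10729 to 15136 CPM. The counts of day 90 and day 180 were deposited in separate tables, so a shift in level from one day to the other cannot be told apart from how a table was made. An effect difference compares irradiated with control lung within each table. This does not cancel a counting of near-identical miRNAs that differed between the tables and between libraries, as for miR-199a-3p and miR-199b-3p.

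No miRNA passed the test of the effect difference: 0 of 554 had an adjusted p under 0.05 (0% called) in edgeR's quasi-likelihood test with Benjamini-Hochberg adjustment. At an unadjusted p under 0.05 there were 76 (13.7%). On the same counts DESeq2 called 6, limma-voom 0, and limma-voom with library weights 11. The 4 smallest adjusted p were all 0.187, for miR-32-5p, miR-122-5p, miR-196b-5p and miR-144-3p, and DESeq2 and limma-voom with library weights both called all 4. At day 90 alone 1 miRNA was called in edgeR (0.181%), miR-122-5p, and at day 180 alone 13 were (2.35%). These calls depended on single libraries. The day 90 count was 0 in 9 of the 16 fits that left out 1 library (replicates 1, 2 and 3 of both day 90 groups, control replicates 1 and 2 and irradiated replicate 2 of day 180) and at most 3. The day 180 count was 0 without control replicate 1 or control replicate 3 of that day, 4 and 5 without control replicates 4 and 2, 36 without irradiated replicate 1 and 47 without irradiated replicate 2. For the effect difference such fits called 0 to 2. The median effect difference of all tested miRNAs was 0.05 on the log2 scale. Across miRNAs, the effects of the 2 days had a Spearman correlation of 0.09 (n = 554 miRNAs, which share libraries and scaling and are not independent replicates).

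A miRNA is said here to turn over when its effects at the 2 days had opposite signs and its effect difference had an unadjusted p under 0.05. This is a description of size and direction, since no effect difference passed the adjusted test. Opposite signs alone were found for 255 of 554 (46%). Turnover was found for 52 (9.39%), and for 38 to 83 when 1 library was left out, the fewest without irradiated replicate 2 of day 90 and the most without irradiated replicate 1 of day 180. Of these, 31 (5.6% of those tested) were higher in irradiated lung at day 90 and lower at day 180, and 21 (3.79%) were lower at day 90 and higher at day 180. The split moved with the scaling and the tool, to 27 and 31 with relative log expression size factors and to 34 and 18 with limma-voom. In 17 of the 31 and in 10 of the 21 the effect was larger than its standard error (SE) on both days. In the others at least 1 of the 2 effects was within its SE of 0. Just inside the limit were miR-490-3p, miR-124-3p and miR-208a-5p (unadjusted edgeR p = 0.0483, 0.0487 and 0.0493, exact permutation p = 0.0196, 0.169 and 0.144), and just outside were miR-489-3p, miR-181a-1-3p and miR-9-5p (0.0513, 0.0526 and 0.0533). Exact permutation p-values use the same libraries and are not adjusted for the 554 tests. Of all 554 miRNAs, 57 had one under 0.05. Control and irradiated libraries did not overlap for 43 miRNAs at day 90 (7.76%) and for 65 at day 180 (11.7%), and for none of the 554 did they separate one way at day 90 and the other way at day 180.

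**Figure D1:**
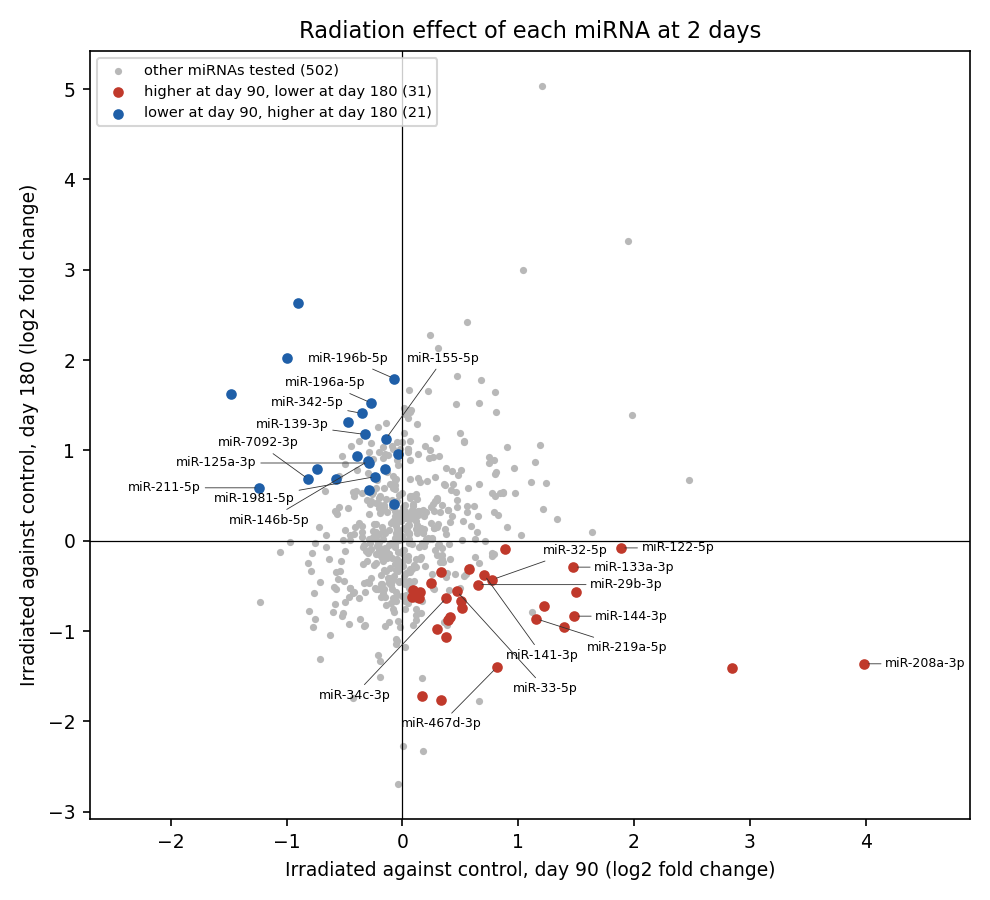
Log2 fold change of irradiated against control lung at day 90 (x axis) and at day 180 (y axis) for each of the 554 tested miRNAs, 1 point per miRNA. The 31 red points lie right of 0 and below it and the 21 blue points left of 0 and above it, with miR-208a-3p farthest to the right at 3.99 and -1.36.

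The most marked turnover by p was that of miR-32-5p, a member of the miR-25/92 seed family encoded in an intron of Tmem245 on chromosome 4 (hairpin 56895229 to 56895298, minus strand, GRCm38.p6). The 4 control libraries of day 90 had 489, 752, 576 and 806 CPM of miR-32-5p and the 4 irradiated ones 1062, 1349.9, 997 and 1087 CPM. At day 180 controls had 1137, 1227, 1304 and 886 CPM and irradiated lungs 711, 856, 938 and 876 CPM. All 4 irradiated libraries lay above all 4 controls at day 90. At day 180 3 of 4 controls lay above every irradiated library, and the groups overlapped. Its effect was 0.78 ± 0.20 (log2, SE) at day 90 and -0.43 ± 0.20 at day 180. The effect difference was -1.21 ± 0.28, with an adjusted p of 0.187 in edgeR's quasi-likelihood test. The exact two-sided permutation p, not adjusted, was 0.000816, where permuting labels within each day allows no p below 0.000408. Among the 52 miR-32-5p alone had an unadjusted edgeR p under 0.05 on both days. The 4 other tested miRNAs of its seed did not share the pattern. miR-25-3p was lower in irradiated lung by about the same amount on both days (-0.81 ± 0.27 and -0.78 ± 0.27), and miR-92b-3p fell at day 180 (-0.69 ± 0.14, edgeR adjusted p = 0.0262) after -0.09 ± 0.14 at day 90. The other arm of the hairpin, miR-32-3p, had an effect difference of -0.19 ± 0.27.

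miR-122-5p, the dominant miRNA of hepatocytes, was the miRNA whose day 90 effect passed the test. In controls miR-122-5p was at 154.3, 152, 179.6 and 441 CPM on day 90 and 891, 585, 729.9 and 879 CPM on day 180. In irradiated lung it was at 992, 972, 866 and 595 CPM and then 837, 904, 747 and 433.2 CPM. At day 90 the fitted level in irradiated lung was 3.696-fold that of controls and the groups did not overlap (log2 effect 1.89 ± 0.35, edgeR adjusted p = 0.0359). At day 180 the groups overlapped, with an effect of -0.08 ± 0.34. The effect difference was -1.96 ± 0.48 (edgeR adjusted p = 0.187, exact permutation p = 0.0139). From day 90 to day 180 it went up by 1.73 in controls and moved by -0.23 in irradiated lung. Without the control of replicate 4 at day 90, the highest of its group, the difference was -2.39 with an edgeR adjusted p of 0.00618. In that fit the day 180 effect was 0.007, no longer below 0, so miR-122-5p did not turn over. Of the 16 fits that left out 1 library, miR-122-5p turned over in 11. Its other arm, miR-122-3p, ran in parallel, at 1.64 ± 0.39, 0.10 ± 0.38 and a difference of -1.54 ± 0.54. How much liver RNA a library may hold was not tested.

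miR-144-3p is made in red blood cell precursors, from a hairpin on chromosome 11 outside other annotated genes (78073005 to 78073070, plus strand). At day 90 miR-144-3p stood at 524, 1398, 783 and 1597 CPM in the controls (replicates 1 to 4) and at 2597, 5205, 1861 and 2388 CPM in the irradiated libraries. The values of day 180 were 1867, 2148, 3256 and 2102 CPM and 2403, 1067, 714 and 1074 CPM. The groups did not overlap at day 90. At day 180 they overlapped through the irradiated library of replicate 1, and the 3 others lay below all 4 controls. The effect was 1.49 ± 0.43 at day 90, -0.83 ± 0.42 at day 180 and the difference -2.32 ± 0.60 (edgeR adjusted p = 0.187, exact permutation p = 0.00204). Without that library the difference was -2.72 with an edgeR adjusted p of 0.0475. The other erythroid miRNAs did not run as a group. miR-144-5p and miR-486a-3p also turned over, with differences of -1.26 ± 0.51 and -1.26 ± 0.47. Of the 16 fits that left out 1 library, miR-144-5p turned over in 9 and miR-486a-3p in all 16. miR-451a, the most abundant erythroid miRNA, had means of 27652 ± 2625 and 26925 ± 1887 CPM in control and irradiated lung at day 90 and of 28202 ± 2926 and 25953 ± 9750.1 CPM at day 180 (SD, n = 4 each), and a difference of -0.08 ± 0.27. Of 7 tested erythroid members 5 had a difference below 0 and 2 above, with a median of -0.19, and the list had no stable direction. Among the 7, miR-486a-5p (0.74) and miR-486b-5p (-0.19) had identical counts at day 90 but not at day 180. How reads were assigned to them was not tested. With miRNAs of identical counts left out, 3 of 5 members were below 0 and 2 above (median -1.16). All 7 were below 0 without the irradiated day 180 library of replicate 1 (median -1.18), while 4 of 7 were above 0 without replicate 3 (median 0.12) or replicate 4 (median 0.13) of that group.

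Some epithelial and ciliated-cell miRNAs turned over in the same direction. miR-141-3p, of the miR-200 family that maintains epithelial identity, had an effect of 0.71 ± 0.22 at day 90 with no overlap of the groups and of -0.38 ± 0.22 at day 180 with overlap. The 4 control libraries of day 90 had 1670.4, 2858, 2233 and 2294 CPM of miR-141-3p and the 4 irradiated ones 4577, 4294, 2896 and 3007 CPM. At day 180 controls had 3409.7, 3789, 3736 and 2403 CPM and irradiated lungs 3371, 2488, 2220.1 and 2195 CPM. Its difference was -1.08 ± 0.31 (edgeR adjusted p = 0.25, exact permutation p = 0.00571). The relatives of miR-141-3p did not all do so: miR-200a-3p, which has the same seed, differed by -0.50 ± 0.36 and the abundant miR-200c-3p by 0.14 ± 0.28, and of 9 tested miR-200 family members 7 had a difference below 0 and 1 turned over, or 3 without the irradiated day 180 library of replicate 1. miR-205-5p of stratified epithelium, which marks basal cells of airways, also turned over (0.39 ± 0.37, then -0.87 ± 0.37). This held in 10 of the 16 fits that left out 1 library.

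miR-34b and miR-34c come from neighbouring hairpins on chromosome 9, are p53 targets and are concentrated in multiciliated cells. In controls miR-34c-3p was at 2653, 2266, 1775 and 1398 CPM on day 90 and 2302, 3062, 2865 and 3110.4 CPM on day 180. In irradiated lung it was at 2383, 2689, 2549 and 2913 CPM and then 1312, 1616, 2699 and 1691 CPM. The groups overlapped on both days, and at day 180 the irradiated library of replicate 3 lay among the controls. The effects were 0.38 ± 0.23 and -0.63 ± 0.23, and the difference was -1.01 ± 0.32 (edgeR adjusted p = 0.294, exact permutation p = 0.00612). miR-34b-5p was separated at day 90, with 3109 ± 421 CPM in irradiated and 1684 ± 479 CPM in control lung (SD, n = 4 each), and its difference was -0.98 ± 0.40. miR-34b-3p, with the seed of miR-34c-3p, had a difference of -0.64 ± 0.29, and miR-34c-5p one of -0.56 ± 0.28. miR-449a-5p, the other abundant miRNA of ciliated cells, had small effects on both days (0.06 ± 0.31 and 0.02 ± 0.31). All 6 tested members of the ciliated list had a difference below 0 (median -0.60, against 0.05 for all 554), but with DESeq2's size factor method in edgeR miR-449a-5p was above 0, as it was in several fits that left out a library. The summed level of the 6 was 15631 to 20049 CPM in control and 20716 to 22863 CPM in irradiated libraries at day 90, and 17384.5 to 25291 and 13697 to 21331 CPM at day 180. In whole lung, fewer cells of a type and less RNA per cell cannot be told apart.

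The other miRNAs of the list of p53-linked miRNAs did not turn over. miR-34a-5p, which p53 induces directly, was higher in irradiated lung on both days without passing the test (0.26 ± 0.17 and 0.40 ± 0.17). miR-194-5p was lower on both days (-0.52 ± 0.26 and -0.79 ± 0.26). Of 9 tested p53-linked miRNAs the 3 with an unadjusted p under 0.05 were arms of the miR-34b/c hairpins, and this count ran from 1 to 4 when 1 library was left out, falling to 1 without control replicate 3 or irradiated replicates 2 or 3 of day 90, among others. miR-34c-3p turned over in all 16 such fits, miR-34b-5p in 6 and miR-34b-3p in 3.

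miR-29b-3p, a repressor of collagen messages, was at its lowest in day 90 controls. At day 90 miR-29b-3p stood at 1587, 2374, 2049.6 and 3187 CPM in the controls (replicates 1 to 4) and at 3664, 4482, 3559.6 and 2729 CPM in the irradiated libraries. The values of day 180 were 4627, 4534, 5526 and 3969 CPM and 1779, 4041, 3848 and 3657 CPM. The day 180 irradiated library of replicate 1 was far below the other 3. The effects were 0.65 ± 0.26 and -0.49 ± 0.26, and the difference -1.14 ± 0.36 (edgeR adjusted p = 0.294, exact permutation p = 0.00367). miR-29a-3p and miR-29c-3p, which share its seed, had differences of -0.42 ± 0.29 and -0.58 ± 0.32, neither with an unadjusted p under 0.05.

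miR-33-5p lies in an intron of Srebf2, a master gene of cholesterol synthesis, and represses the cholesterol exporter Abca1. The 4 control libraries of day 90 had 2113, 2354, 1586 and 3483 CPM of miR-33-5p and the 4 irradiated ones 3461, 3391, 4037 and 2304 CPM. At day 180 controls had 2050.4, 2485, 2268 and 2148 CPM and irradiated lungs 1349, 1578, 2069.9 and 1092 CPM. At day 180 3 of 4 irradiated libraries lay below all controls. Its effects were 0.47 ± 0.25 and -0.56 ± 0.25 and the difference -1.02 ± 0.35 (edgeR adjusted p = 0.294). The scarcer miR-219a-5p, a miRNA of oligodendrocytes and neurons, had a larger difference, -2.02 ± 0.59 (edgeR adjusted p = 0.256, exact permutation p = 0.00367). In controls miR-219a-5p was at 7.35, 6.13, 6.46 and 17.8 CPM on day 90 and 9.22, 10.3, 15.4 and 14.2 CPM on day 180. In irradiated lung it was at 19.95, 22.9, 29.2 and 12.5 CPM and then 8.35, 6.47, 9.62 and 2.61 CPM. The groups overlapped at both days through single libraries, the control of replicate 4 at day 90 and the irradiated library of replicate 3 at day 180. miR-30a-5p and miR-30e-5p, with 1 seed between them, also turned over (differences of -0.71 ± 0.28 and -1.17 ± 0.45), while the 11 tested miR-30 arms were split, 6 above and 5 below 0.

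**Figure D2:**
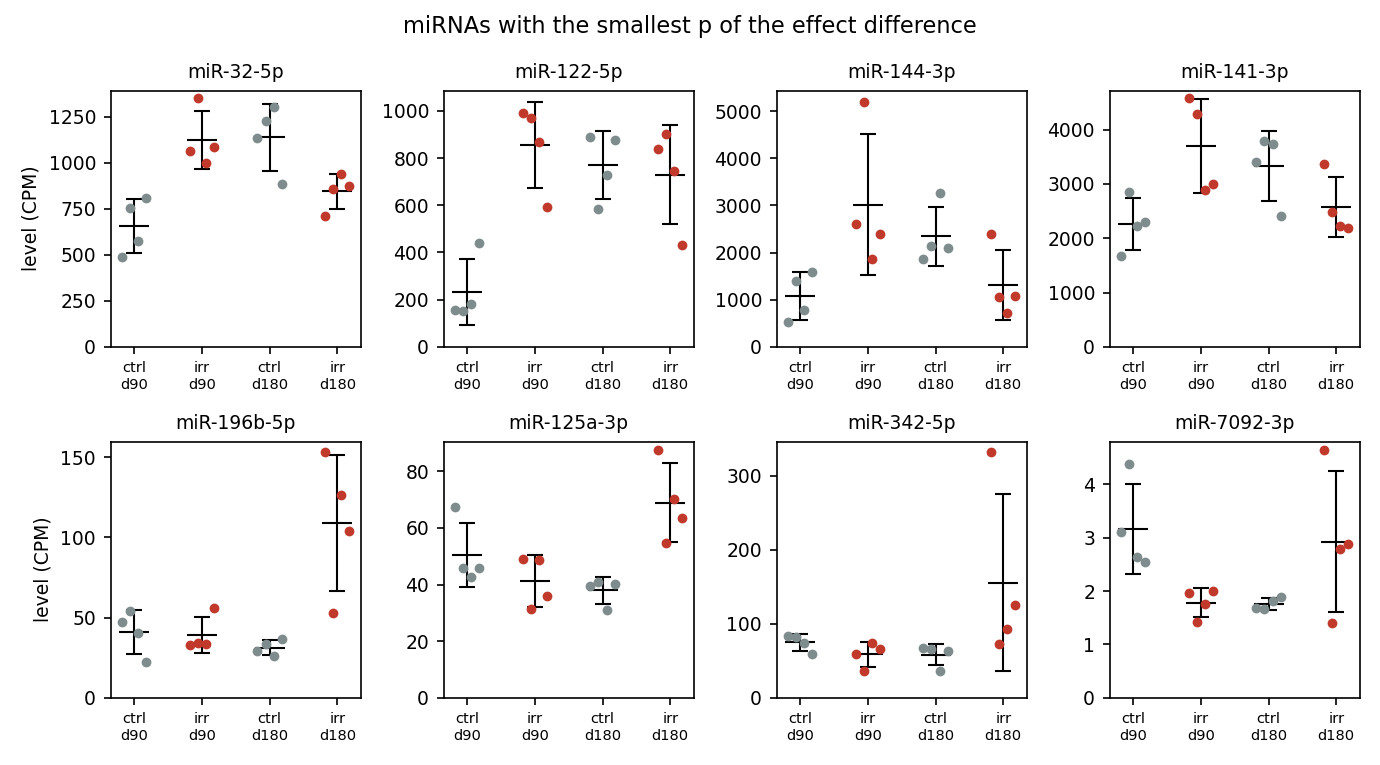
Level in CPM of the 4 miRNAs with the smallest p of each direction of turnover, 1 point per library with the group mean and SD (n = 4), for control (ctrl, grey) and irradiated (irr, red) lung at day 90 (d90) and day 180 (d180). In the upper row the irradiated libraries lie above the controls at day 90, and in the lower row those of miR-196b-5p, miR-125a-3p and miR-342-5p lie above the controls at day 180.

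The striated muscle list had a median difference of -1.80. All 9 tested members had a difference below 0, against 262 of all 554, 7 had an unadjusted p under 0.05 (13.7% of all did) and 6 turned over (9.39% of all). These counts depended on single libraries. Without the control of replicate 4 at day 180, 1 had an unadjusted p under 0.05 and 0 turned over, and without control replicate 1 or irradiated replicate 2 of day 90 there were 2 and 1. Over the fits that left out 1 library the counts ran from 1 to 8 and from 0 to 7, and 8 or 9 of the 9 differences were below 0. By day, the median effect of the list was 1.48 at day 90 and -0.57 at day 180. None of the 9 passed the adjusted test at either day. miR-208a-3p, named in the study's title, is made from an intron of Myh6, a heart muscle myosin gene (chromosome 14, hairpin 54949060 to 54949142, minus strand). At day 90 miR-208a-3p stood at 0.283, 35.04, 12.03 and 0 CPM in the controls (replicates 1 to 4) and at 115, 400.2, 49.1 and 187 CPM in the irradiated libraries. The values of day 180 were 0, 35.6, 0.602 and 132.8 CPM and 45.02, 5.91, 15.95 and 0.261 CPM. The counts behind these values ran from 0 to 1417 reads. At day 90 all 4 irradiated libraries lay above all 4 controls, but the controls reached 35.04 CPM. At day 180 the highest and the lowest value were both in controls. Its effects were 3.99 ± 1.67 and -1.36 ± 1.53 and the difference -5.35 ± 2.24, with an edgeR adjusted p of 0.309 and an exact permutation p of 0.114. In each day 1 control was at 0. Group levels rested largely on single libraries, such as 132.8 CPM in 1 control and 45.02 CPM in 1 irradiated library of day 180. The effect difference ran from -6.92 to -3.47 over 29 other ways of fitting or leaving out libraries.

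In each of the 4 groups the library with the highest miR-208a-3p also had the highest miR-1a-3p and miR-133a-3p, which heart and skeletal muscle both make. The 4 control libraries of day 90 had 248, 985, 745 and 400.0 CPM of miR-1a-3p and the 4 irradiated ones 1461, 2844, 653.9 and 1311 CPM. At day 180 controls had 404, 1145, 374 and 2473 CPM and irradiated lungs 1364, 307, 425 and 177 CPM. The irradiated day 90 library of replicate 2 and the control day 180 library of replicate 4 were the highest of their groups for miR-1a-3p, miR-133a-3p, miR-1b-5p and miR-208a-3p. In controls miR-133a-3p was at 69.5, 193, 119 and 70.5 CPM on day 90 and 208.1, 439, 189 and 558 CPM on day 180. In irradiated lung it was at 268, 450.8, 160.0 and 381.6 CPM and then 442, 261, 282 and 154.5 CPM. The differences were -2.35 ± 0.99 for miR-1a-3p and -1.77 ± 0.64 for miR-133a-3p. miR-133b-3p, a near-identical relative whose reads the counting could split, was scarce but separated at day 90 (9.06 ± 1.76 CPM in irradiated against 1.60 ± 0.74 CPM in control, SD, n = 4 each). miR-208b-3p, of the Myh7 gene, did not share the spread of miR-208a-3p. Its values were 35.5, 35.6, 31.0 and 28.5 CPM in day 180 controls and 29.7, 9.56, 5.32 and 18.3 CPM in day 180 irradiated libraries, with a difference of -1.45 ± 0.62. Skeletal muscle makes miR-206-3p and heart does not, and its mean was above control on both days with a difference of -0.27 ± 0.70.

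The summed level of the 9 muscle miRNAs was 382.3 to 1353 CPM in day 90 controls, 1007 to 4079 CPM in day 90 irradiated, 680 to 3449 CPM in day 180 controls and 432.4 to 2108 CPM in day 180 irradiated libraries. The ranges of control and irradiated lung overlapped on both days. The part of heart or other muscle left with the lung in these values was not tested.

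**Figure D3:**
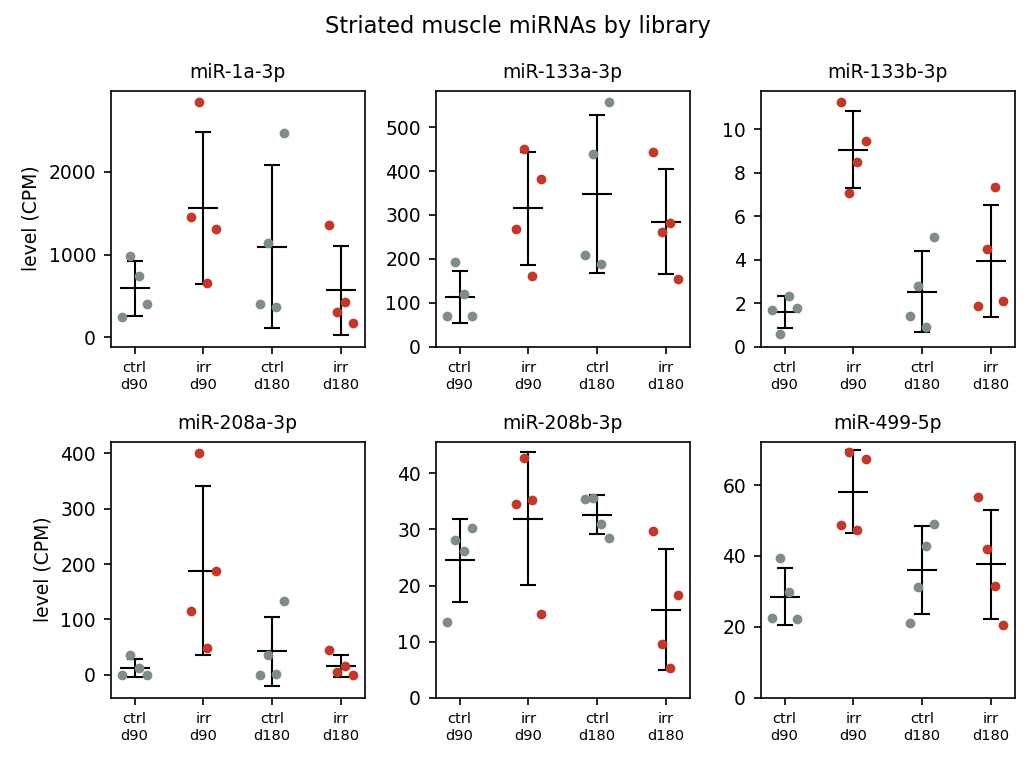
Level in CPM of 6 striated muscle miRNAs, 1 point per library with the group mean and SD (n = 4), for control (ctrl, grey) and irradiated (irr, red) lung at day 90 (d90) and day 180 (d180). miR-133b-3p, miR-499-5p and miR-208a-3p separate the groups at day 90, and miR-208a-3p reaches 132.8 CPM in 1 control of day 180.

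Among the miRNAs that were lower at day 90 and higher at day 180, miR-196b-5p had the smallest p. miR-196a-5p and miR-196b-5p are Hox cluster miRNAs that repress Hox messages and have the same seed. The hairpin of miR-196b overlaps an exon of Hoxa9 (chromosome 6, 52230081 to 52230165, minus strand), and those of miR-196a lie on chromosomes 11 and 15. At day 90 miR-196b-5p stood at 47.5, 54.3, 40.2 and 22.6 CPM in the controls (replicates 1 to 4) and at 33.2, 33.9, 33.6 and 55.8 CPM in the irradiated libraries. The values of day 180 were 29.1, 33.6, 26.2 and 36.4 CPM and 153.2, 52.6, 126.1 and 104 CPM. The groups overlapped at day 90 and all 4 irradiated libraries lay above all 4 controls at day 180, with a fitted fold of 3.47. miR-196b-5p rose at day 180 (1.80 ± 0.33, edgeR adjusted p = 0.019) from an effect of -0.07 ± 0.33 at day 90. Its difference was 1.87 ± 0.46 (edgeR adjusted p = 0.187, exact permutation p = 0.0253), and 2.15 with an edgeR adjusted p of 0.042 without the irradiated day 180 library of replicate 2. The 4 control libraries of day 90 had 11.6, 16.6, 16.1 and 2.79 CPM of miR-196a-5p and the 4 irradiated ones 5.06, 9.60, 9.05 and 15.2 CPM. At day 180 controls had 8.94, 12.2, 6.93 and 9.80 CPM and irradiated lungs 22.7, 16.03, 36.5 and 33.99 CPM. The irradiated day 180 libraries of miR-196a-5p likewise lay above all controls of that day, and its difference was 1.79 ± 0.64 (edgeR adjusted p = 0.309).

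miR-10b-5p, from the Hoxd cluster, also did not overlap at day 180 (735 ± 191 CPM in control and 1435 ± 464 CPM in irradiated lung, SD, n = 4 each), with a difference of 1.00 ± 0.39. miR-10a-5p, its seed partner from the Hoxb cluster, had a difference of 0.10 ± 0.30, and this sign changed without the irradiated day 180 library of replicate 1 (-0.19). Of the 6 tested Hox cluster miRNAs all had a difference above 0 (median 1.05). Without that library 3 were above and 3 below (median 0.40), and the 3 that turned over still did.

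Of 13 tested inflammatory miRNAs, 12 had a difference above 0, against 292 of all 554, with a median of 0.83. Turnover was found for 3 (9.39% of all): miR-146b-5p, miR-155-5p and miR-222-3p. An unadjusted p under 0.05 was found for 6 (13.7% of all), and for 10 without the irradiated day 180 library of replicate 1. The count was 4 without control replicate 4 of day 90 or irradiated replicate 4 of day 180. It was 3 with limma-voom and 1 with a block for the replicate number within each day. miR-146b-5p, an NF-kB induced brake on innate signalling, had effects of -0.30 ± 0.28 at day 90 and 0.88 ± 0.28 at day 180. In controls miR-146b-5p was at 3257, 2285, 2156 and 2573 CPM on day 90 and 2227, 2894, 2036 and 1894 CPM on day 180. In irradiated lung it was at 2184, 1795, 1937 and 2444 CPM and then 2577, 2389.8, 5385 and 6323 CPM. The irradiated day 180 libraries of replicates 3 and 4 were far above the rest. The difference was 1.18 ± 0.39 (edgeR adjusted p = 0.294, exact permutation p = 0.0196). Its seed partner miR-146a-5p had effects of -0.11 ± 0.15 and -0.15 ± 0.15 and a difference of -0.03 ± 0.21.

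miR-155-5p is made by activated macrophages and lymphocytes from an exon of its host RNA Mir155hg. At day 90 miR-155-5p stood at 270.4, 309, 191.6 and 340.9 CPM in the controls (replicates 1 to 4) and at 232, 242, 216 and 317 CPM in the irradiated libraries. The values of day 180 were 518, 513, 536 and 321.6 CPM and 720.3, 533, 965 and 1906 CPM. The irradiated libraries of day 180 overlapped the controls by 1 library, that of replicate 2. The effects were -0.14 ± 0.33 and 1.13 ± 0.34 and the difference 1.27 ± 0.47 (edgeR adjusted p = 0.309, exact permutation p = 0.0376). miR-155-5p was also higher at day 180 than at day 90 in controls, by 0.76 ± 0.33. miR-222-3p, which promotes cell cycle entry, had a small difference of 0.48 ± 0.20 with no overlap at day 180. miR-147-3p, induced in activated macrophages, rose at day 180 (2.42 ± 0.55, edgeR adjusted p = 0.034) and was above control at day 90 as well. The profibrotic miR-21a-5p did not turn over. It was at 0.09 ± 0.10 at day 90 and rose at day 180 (0.41 ± 0.10, edgeR adjusted p = 0.04).

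Several other miRNAs of this direction were the less abundant arm of their hairpin. For miR-125a-3p the groups did not overlap at day 180. The 4 control libraries of day 90 had 67.3, 45.8, 42.6 and 45.9 CPM of miR-125a-3p and the 4 irradiated ones 49.2, 31.4, 48.8 and 35.9 CPM. At day 180 controls had 39.7, 40.8, 31.0 and 40.2 CPM and irradiated lungs 87.7, 54.6, 70.1 and 63.5 CPM. Its difference was 1.15 ± 0.33 (edgeR adjusted p = 0.25, exact permutation p = 0.00408), and DESeq2 called it. The abundant arm miR-125a-5p differed by 0.18 ± 0.36. miR-342-5p lies in an intron of Evl, a gene of leukocytes among others. In controls miR-342-5p was at 83.9, 82.6, 73.7 and 59.6 CPM on day 90 and 67.6, 65.3, 36.4 and 63.9 CPM on day 180. In irradiated lung it was at 59.0, 35.9, 74.2 and 65.8 CPM and then 332, 72.3, 92.7 and 125 CPM. The irradiated day 180 library of replicate 1 had 332 CPM, and without it the difference of 1.76 ± 0.57 was 1.16. Its other arm miR-342-3p did not overlap at day 90, where it was lower in irradiated lung, and differed by 0.89 ± 0.45, or by 1.26 without that library (edgeR adjusted p = 0.0475). miR-139-3p had 140.6 CPM in the same library and 32.9 to 46.6 CPM in the 3 others, and its difference of 1.50 ± 0.55 was 0.90 without it.

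miR-211-5p, encoded in an intron of the melanocyte gene Trpm1, had a larger effect at day 90 than at day 180. At day 90 miR-211-5p stood at 116, 106.3, 76.0 and 57.1 CPM in the controls (replicates 1 to 4) and at 24.7, 25.99, 28.9 and 71.2 CPM in the irradiated libraries. The values of day 180 were 44.4, 61.1, 64.4 and 59.5 CPM and 34.3, 69.5, 77.0 and 163 CPM. At day 90 the irradiated library of replicate 4 lay within the controls and the other 3 lay below all of them. The difference was 1.82 ± 0.61 (edgeR adjusted p = 0.294), and its seed partner miR-204-5p differed by -0.01 ± 0.58. miR-7092-3p was lower without overlap at day 90, at means of 3.17 and 1.78 CPM, so its values rest on few reads. miR-23a-5p and miR-27a-5p, from hairpins of 1 cluster on chromosome 8, turned over together. Of the 16 fits that left out 1 library, each of these miRNAs turned over in 15. miR-27a-5p lost turnover without control replicate 1 of day 90, and miR-23a-5p without irradiated replicate 1 of day 180. For miR-23a-5p the irradiated day 180 library of replicate 1 had 36.2 CPM and the other 3 had 2.03 to 3.40 CPM. That library was the highest irradiated library of day 180 for 13 of the 21 miRNAs of this direction. Without it, 17 of the 21 still turned over.

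Of 12 tested neural and neuroendocrine miRNAs, 3 turned over (9.39% of all) and 2 passed the test at day 180 (2.35% of all). The turnover count ran from 1 without control replicate 2 of day 90 to 5 without irradiated replicate 4 of day 180. miR-124-3p and miR-9-3p turned over from lower to higher, and miR-219a-5p the other way. Of the 16 fits that left out 1 library, miR-124-3p turned over in 4, miR-9-3p in 14 and miR-219a-5p in all 16. At day 90 miR-124-3p was at 31.4, 120, 2.64 and 3.30 CPM in controls and at 5.34, 6.21, 7.30 and 59.3 CPM in irradiated lung. miR-184-3p rose at day 180 (2.27 ± 0.42, edgeR adjusted p = 0.019) from 0.23 ± 0.41 at day 90. miR-7b-5p rose at day 180 as well (3.32 ± 0.74, edgeR adjusted p = 0.034) but was above control at day 90 too (1.95 ± 0.71). Across the list 7 had a difference above 0 and 5 below, with a median of 0.95, or 0.52 without the irradiated day 180 library of replicate 1.

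Counts for the other lists are read against 292 differences above 0, 262 below and 52 turnovers (9.39%) among all 554. In the Sfmbt2 cluster (miR-297, miR-466, miR-467 and miR-669), with near-identical copies that make single counts uncertain, 28 of 37 tested members had a difference below 0 (median -0.44) and 4 turned over, from 1 without control replicate 1 to 8 without irradiated replicate 2 of day 180, and 0 at a minimum mean of 10 CPM. The imprinted Dlk1-Dio3 cluster had 22 of 38 above 0 (median 0.15) and no turnover, but up to 2 when 1 library was left out. The lymphoid list had 7 of 8 above 0 (median 0.51) and 1 turnover, but 4 with relative log expression size factors, with DESeq2, at a minimum mean of 10 CPM or with miRNAs of identical counts left out. The miR-29 list was split 3 and 3 (median -0.07), as was the fibroblast list (median -0.07), and smooth muscle was split 2 and 2 (median -0.26). The fibroblast split includes miR-199a-3p (0.97) and miR-199b-3p (-1.31), whose counts were identical at day 90 but not at day 180. Without the irradiated day 180 library of replicate 1 all 4 smooth muscle miRNAs were below 0 (median -0.61), as they were with library weights. Medians were 0.15 for 20 members of proliferation clusters, 0.19 for 13 of the miR-15/16 family, 0.11 for 18 of let-7 and miR-98 (13 above and 5 below 0, or 6 and 12 without that library), 0.09 for 4 myeloid and pan-leukocyte miRNAs and -0.50 for 3 endothelial ones. The 2 hypoxia miRNAs had a median of 1.19, and neither had an unadjusted p under 0.05, though 1 did without irradiated replicate 1 or 2 of day 180. The 2 liver arms were those of miR-122, with a median of -1.75.

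**Figure D4:**
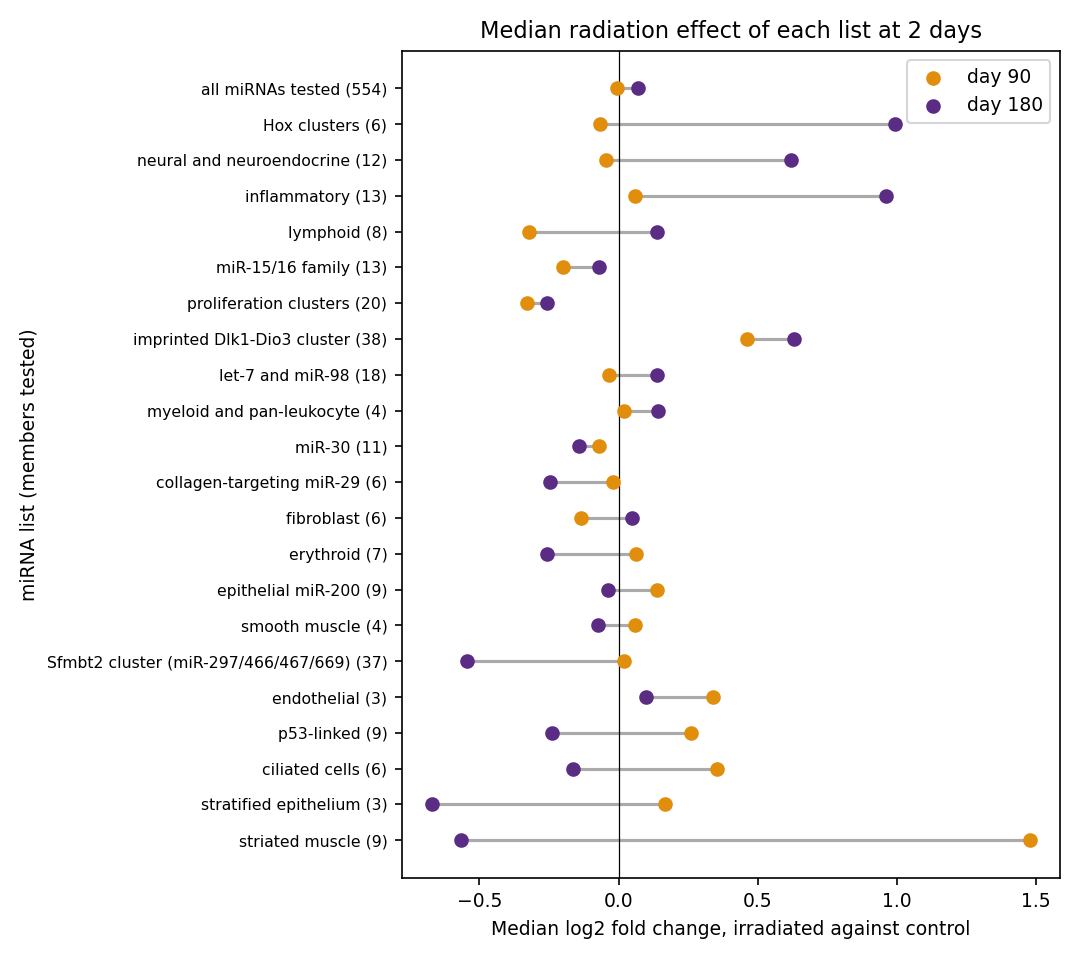
Median log2 fold change of irradiated against control lung at day 90 (orange) and day 180 (purple) for each miRNA list with 3 or more tested members, and for all 554. Striated muscle runs from 1.48 to -0.57, and Hox clusters, neural and inflammatory lists lie near 0 at day 90 and above 0.6 at day 180.

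Turnover can be made up of a shift in controls, in irradiated lung, or in both, as the plot of the shift between days shows. The irradiated shift minus the control shift equals the effect difference that selected the turnover miRNAs, so the rule itself favours opposite shifts. Among the 31 miRNAs that were higher and then lower, 28 went up from day 90 to day 180 in controls while they went down in irradiated lung, and the other 3 went down in both. The median shift was 0.59 in controls and -0.79 in irradiated lung. The control shift was the larger in 12 of 31 (38.7%), near the share over all 554 (201, 36.3%). Examples are miR-122-5p, with 1.73 in controls and -0.23 in irradiated lung, miR-133a-3p, with 1.62 and -0.15, and miR-29b-3p, with 1.02 and -0.12. For miR-219a-5p the shift lay mainly in irradiated lung, at 0.37 and -1.64.

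Among the 21 miRNAs that were lower and then higher, irradiated lung went up in all 21, with a median of 1.09, and 17 of them went down in controls (median of the 21, -0.39). In 4 of the 21 the control shift was the larger, among them miR-1981-5p at -0.70 in controls and 0.24 in irradiated lung. Here too the rule favours opposite shifts. Over all 554 the median shifts were 0.00 in controls and 0.04 in irradiated lung. Of these 554, 112 went up in controls and down in irradiated lung, and 128 went the opposite way. These shifts compare separate tables.

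**Figure D5:**
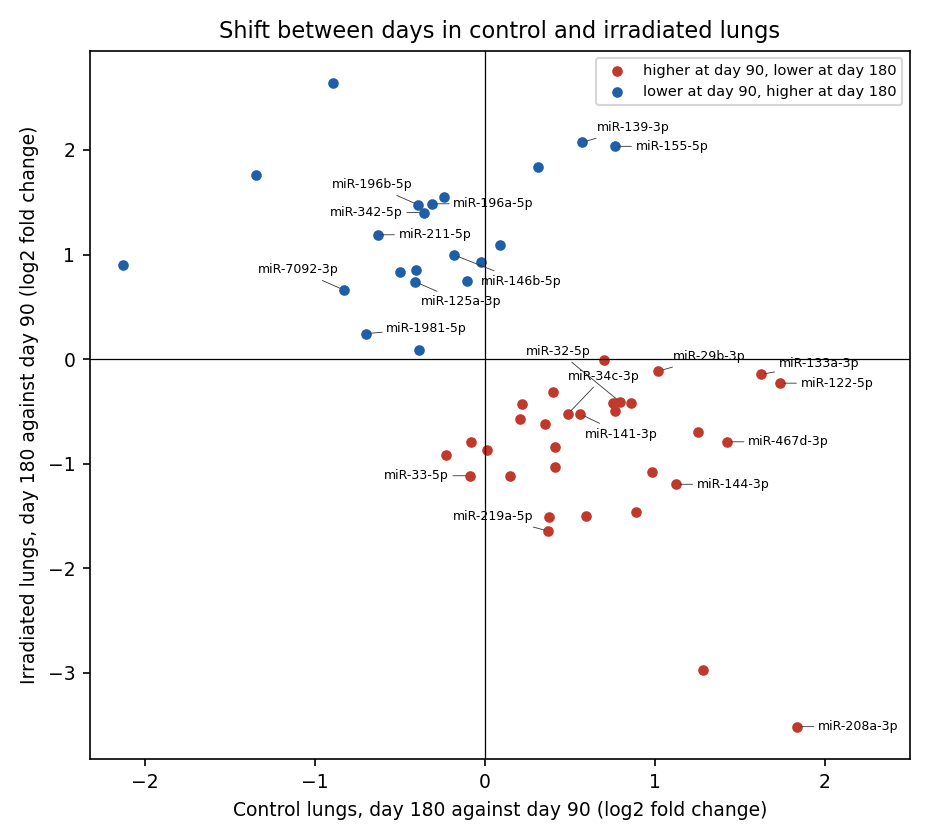
Log2 fold change of day 180 against day 90 in control lung (x axis) and in irradiated lung (y axis) for the 52 miRNAs that turned over. The 31 red points lie below the horizontal line at 0, 28 of them right of the vertical line, and all 21 blue points lie above the horizontal line.

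Features that did not define turnover were compared by description. The 31 miRNAs had a median GC content of 40.9% (22 with a sequence) and the 21 one of 45.5% (19 with a sequence), against 47.8% for the 459 tested miRNAs with a sequence. GC content had a Spearman correlation of 0.19 with the effect difference across the 459, which share libraries, a weak relation. The median level was 76.3 CPM for the 31, 49.6 CPM for the 21 and 41.1 CPM for all 554. 3p arms made up 17 of the 31 (54.8%), 9 of the 21 (42.9%) and 48.9% of all. Where the other arm of the same hairpin was tested, its difference had the same sign in 11 of 16 and in 7 of 10. Both arms of miR-144, miR-208a and miR-34b were among the 31, so these arms count toward the 11 by definition. The share over all tested hairpins was not counted. Of the 13 seeds that the 52 share with at least 1 other tested miRNA, 4 had 2 members that turned over, each pair in 1 direction: miR-196a-5p with miR-196b-5p, miR-34b-3p with miR-34c-3p, miR-30a-5p with miR-30e-5p, and miR-208a-3p with miR-208b-3p. The last 3 pairs depended on single libraries: of 16 fits that left out 1 library, miR-34b-3p turned over in 3, miR-30a-5p in 7 and miR-208b-3p in 4. The 13 seeds were picked for holding a turnover miRNA, and the share over all tested seeds was not counted.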

How the data were processed

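Small RNA of whole mouse lung was sequenced in 24 libraries, and the 16 of day 90 and day 180 were used. Per the file headers, the authors deposited raw read counts per mature miRNA, RPM values and group means of both. The group means of the counts, estimated counts that need not be whole, were made by the authors, and neither they nor the RPM values were used in tests. Bowtie2 and the build GRCm38 are named in the submitters' processing notes; other steps are not given in the sources used here.

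Rows of annotated miRNAs present in both tables were joined by name. Counts were filtered with edgeR's filterByExpr by group, scaled by TMM over the 16 libraries and fitted in edgeR 4.0.16 (R 4.3.3) as 4 group means. The quasi-likelihood F-test gave the effect of each day and their difference, with Benjamini-Hochberg adjustment over the 554 tested miRNAs. Standard errors were derived as the absolute log2 fold change divided by the square root of F. The exact permutation test reassigned labels within each day (4900 splits, log2 CPM with a prior count of 2). Alternatives included DESeq2 1.42.0 and limma 3.58.1, other scalings and filters, and leaving out each library. The fitting steps were tested on simulated data.

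Named miRNAs were the 10 of each direction of turnover with the smallest p, their other arms, miR-208a-3p and the 2 most abundant tested members of each list. Further members of lists, seed families and day 180 calls were chosen after their values were seen. The members and lists were chosen with earlier results of these data known. Total counts were 2832205 to 3695133 per library, and standard errors and p-values reflect the spread between libraries. Sequences and positions came from RefSeq and from GENCODE's annotation of GRCm38.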

Additional observations from a re-analysis of the deposited data

Results flagged for a closer look

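In 15 of 176 groups of 4 libraries (8.52%), over 44 miRNAs, 1 library lay farther from the other 3 than Dixon's 95% critical value allows. Chance flags about 1 in 20 groups. At day 90 and day 180 such libraries were found for miR-122-5p in the control day 90 library of replicate 4 (441 CPM), miR-125a-3p in the control day 180 library of replicate 3 (31.0 CPM), miR-125a-3p in the control day 90 library of replicate 1 (67.3 CPM), miR-125a-5p in the control day 180 library of replicate 1 (4945 CPM) and miR-139-3p in the irradiated day 180 library of replicate 1 (140.6 CPM). They were also found for miR-155-5p in the control day 180 library of replicate 4 (321.6 CPM), miR-196b-5p in the irradiated day 90 library of replicate 4 (55.8 CPM), miR-1981-3p in the irradiated day 90 library of replicate 1 (5.06 CPM), miR-211-5p in the irradiated day 90 library of replicate 4 (71.2 CPM) and miR-219a-5p in the control day 90 library of replicate 4 (17.8 CPM). The remaining ones were miR-29b-3p in the irradiated day 180 library of replicate 1 (1779 CPM), miR-30b-5p in the control day 90 library of replicate 3 (16367 CPM), miR-342-5p in the control day 180 library of replicate 3 (36.4 CPM), miR-34a-5p in the irradiated day 90 library of replicate 4 (20663 CPM) and miR-34b-3p in the control day 90 library of replicate 1 (6881 CPM). Values of miR-139-3p and miR-29b-3p in the irradiated day 180 library of replicate 1 belong to the library that stood apart in its correlation with the others.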

How the results depend on the processing

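All 52 turnover miRNAs kept the sign of their effect difference in each of the 16 fits that left out 1 library. They were selected by an unadjusted p under 0.05 on the same libraries, so a kept sign was likely beforehand. Of the 52, 21 met the turnover definition in all 16. miR-196b-5p lost it without the control of replicate 2 at day 90, and miR-122-5p and miR-208a-3p lost it in 5 fits each. With relative log expression size factors the values were 0 day 90 calls, 0.0396 for miR-146a-5p, 0.0503 for miR-449a-5p and 0.000506 for miR-451a. With upper-quartile scaling the values were 6 day 180 calls. With no filter on low counts the values were 3 day 180 calls, 87 turnover miRNAs, a median of 0.24 for collagen-targeting miR-29, a median of -0.23 for endothelial, a median of -0.72 for Sfmbt2 cluster and -0.0156 for miR-1981-3p. With a minimum mean of 10 CPM the values were 29 day 180 calls, a median of -0.32 for p53-linked, a median of -0.0443 for endothelial, a median of 1.30 for neural and neuroendocrine, a median of 0.17 for miR-30, 0.0861 for miR-146a-5p, 0.14 for miR-449a-5p and 0.042 for miR-451a. With DESeq2 the values were 6 calls of the effect difference, 4 day 90 calls, 52 day 180 calls, 0.0395 for miR-146a-5p, 0.0503 for miR-449a-5p and 0.000487 for miR-451a. With limma-voom the values were 2 day 90 calls, a median of -1.33 for erythroid, a median of 0.65 for Hox clusters and -0.024 for miR-10a-5p. With limma-voom with library weights the values were 11 calls of the effect difference, 14 day 90 calls, 43 day 180 calls, 90 turnover miRNAs, a median of -0.26 for collagen-targeting miR-29, a median of -0.56 for smooth muscle, a median of -1.17 for erythroid, a median of 0.56 for neural and neuroendocrine, a median of 0.41 for Hox clusters, a median of -0.14 for let-7 and miR-98, a median of -0.16 for miR-30, -0.15 for miR-10a-5p and 0.0227 for miR-146a-5p. With edgeR's newer fit the values were 2 day 90 calls and 29 day 180 calls. With the replicate block within each day the values were 0 day 90 calls, 0 day 180 calls, 34 turnover miRNAs, a median of -1.34 for erythroid and a median of 0.71 for Hox clusters. With all 24 libraries in 1 fit the values were 0 day 90 calls, 42 day 180 calls, 0.0161 for miR-146a-5p and 0.0388 for miR-449a-5p. With miRNAs of identical counts left out the values were 21 day 180 calls, a median of -1.16 for erythroid, 0.067 for miR-146a-5p, 0.0902 for miR-449a-5p and 0.0237 for miR-451a. With both day 180 irradiated libraries of lowest correlation left out the values were 5 calls of the effect difference, 3 day 90 calls, a median of -0.29 for p53-linked, a median of -0.57 for smooth muscle, a median of -0.50 for stratified epithelium, a median of -1.02 for erythroid, a median of 0.60 for neural and neuroendocrine, a median of 0.58 for Hox clusters, a median of -0.0747 for imprinted Dlk1-Dio3 cluster, a median of -0.13 for Sfmbt2 cluster, a median of -0.16 for let-7 and miR-98, a median of 0.20 for hypoxia, -0.12 for miR-125a-5p, -0.12 for miR-10a-5p and 0.0273 for miR-146a-5p. Leaving out 1 library at a time gave 0 to 3 for day 90 calls, 0 to 47 for day 180 calls, 0 to 2 for calls of the effect difference, 38 to 83 for turnover miRNAs, -0.0282 to 0.38 for miR-1981-3p, -0.066 to 0.37 for miR-467d-5p. The ranges were also -0.19 to 0.35 for miR-10a-5p, -0.0844 to 0.18 for miR-146a-5p, -0.86 to 0.14 for miR-375-3p, -0.34 to 0.33 for miR-449a-5p, -0.30 to 0.14 for miR-451a, -0.67 to -0.31 for p53-linked. The ranges were also 0.55 to 1.26 for inflammatory, -0.61 to -0.0154 for smooth muscle, 0.0508 to 0.35 for proliferation clusters, -0.99 to -0.54 for stratified epithelium, -1.18 to 0.13 for erythroid, 0.52 to 1.23 for neural and neuroendocrine. The ranges were also 0.40 to 1.39 for Hox clusters, -0.59 to -0.17 for Sfmbt2 cluster, -0.10 to 0.29 for let-7 and miR-98, -0.15 to 0.20 for miR-30, 0.15 to 1.57 for hypoxia. Whether the replicate numbers pair the libraries is not stated, and correlations could not settle it. Same-numbered control and irradiated libraries correlated at -0.24 to 0.36 at day 90 and at -0.29 to -0.02 at day 180. Differently numbered ones correlated at -0.36 to 0.33 at day 90 and at -0.31 to 0.23 at day 180. The replicate block, with 34 turnover miRNAs and 0 calls of the effect difference, is therefore given only as an alternative. The cause of these changes was not tested. Leaving out both day 180 irradiated libraries of lowest correlation was chosen after seeing the data. Low counts limit scarce miRNAs such as miR-7092-3p.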

Other observations

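At day 90 the counts of miR-199a-3p and miR-199b-3p were identical in each of the 8 libraries, between 7094 and 13702. At day 180 nearly all reads lay on 1 of these miRNAs in each library: control replicate 1 had 97 of miR-199a-3p and 6630 of miR-199b-3p, and control replicate 4 had 7321 and 80. In irradiated replicate 1 they were 1328 and 6, and in irradiated replicate 2 they were 4347 and 11. Fits that left out 1 day 180 library called one or the other, with an effect difference of 6.39 for miR-199a-3p without control replicate 4 and -7.74 for miR-199b-3p without irradiated replicate 4 (edgeR adjusted p = 0.0147 and 0.0108). Their sum at day 180 was 5001 to 7926 reads in controls and 1334 to 6523 in irradiated libraries. At day 90, 19 tested miRNAs had counts identical to another, and at day 180 none did. None of the 52 turnover miRNAs was among them.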
